A study of Homo sapiens with 6 samples.

Results

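The 10 genes described here encode enzymes that modify prolines and lysines of collagen and the chaperone that works beside them: P4HA1, P4HA2, LEPRE1, PLOD1, PLOD2, PLOD3, SERPINH1, LOX, LOXL1 and LOXL2. They were chosen by name, from known function, with earlier results of these data known. Each was found as 1 of the 23686 genes of the count files. LEPRE1 is the older symbol of P3H1. All 10 had enough reads to be tested, with between 195 (LOXL1, control library 2) and 7980 (PLOD2, co-culture library 3) reads per library.

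The RNA came from HEK293, a standard laboratory line derived from human embryonic kidney, in a GFP+ form that carries green fluorescent protein. The 3 co-culture samples were GFP+ cells that shared a culture for 10 h with HEK293 (+DAAO) cells, DAAO being the usual short name of D-amino acid oxidase. The medium held 25 µM D-alanine, a substrate from which that enzyme makes hydrogen peroxide. The 3 control samples, titled wild-type, carry the GFP+ genotype too, and cells of both groups were collected by fluorescence-activated sorting. All samples share the GFP genotype and high-glucose medium with serum. A single treatment text covers all 6 samples, so whether the controls also received D-alanine or had partner cells cannot be told from the labels. Nothing in the labels says that replicates came from separate cultures, so the p-values measure the spread between these samples, which may be technical.

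Collagen chains are modified inside the endoplasmic reticulum before they fold. Prolyl 4-hydroxylase, built from an alpha subunit (P4HA1 or P4HA2) and the shared subunit P4HB, hydroxylates prolines and so stabilises the triple helix. LEPRE1 modifies selected prolines in a complex with CRTAP and PPIB, the PLOD enzymes hydroxylate lysines, and SERPINH1 is a collagen-specific chaperone. These hydroxylases use oxygen, iron, 2-oxoglutarate and ascorbate. Outside the cell, LOX and its relatives oxidise lysines to start crosslinks, a copper-dependent reaction that itself releases hydrogen peroxide. P4HA1, P4HA2, PLOD1, PLOD2, LOX and LOXL2 are known to be induced in low oxygen by the hypoxia-inducible factor (HIF).

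PLOD2, the lysyl hydroxylase of the non-helical ends of collagen, had the smallest p-value of the 10 genes, and the region before its start is printed here for the core of the HIF response element, written as ACGTG or GCGTG. Matches on either strand are in capitals, so a match on the other strand reads CACGT or CACGC. The sequence is the 250 bases before the RefSeq start of PLOD2 (GRCh38.p14, chr3:146161185-146161434, minus strand, given in the direction of the gene), a stretch that overlaps no exon annotated in GENCODE release 29.
PLOD2: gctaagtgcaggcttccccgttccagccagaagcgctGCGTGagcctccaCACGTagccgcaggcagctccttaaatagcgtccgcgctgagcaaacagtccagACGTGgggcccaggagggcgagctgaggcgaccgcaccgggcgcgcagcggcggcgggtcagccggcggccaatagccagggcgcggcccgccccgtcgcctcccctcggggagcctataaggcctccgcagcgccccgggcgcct
This window held 3 matches, beginning 213, 200 and 146 bases before the start, and 7.76% of 35116 windows of this length held 3 or more. At least 1 match was present in 43.2% of all windows. Among the windows of genes tested here, 54.5% held a match and 10.9% held 3 or more. A promoter entry was found for 9 of the 10 genes (12 windows, since LOX had 3 starts and SERPINH1 had 2). LOXL2 had no entry and was not searched. Of the 9 genes, 6 held a match in at least 1 window. This count is per gene, over all windows of LOX and SERPINH1. The percentages above are per window, so they are not a like measure. P4HA2, PLOD3 and LOXL1 held none, and the P4HA2, PLOD3 and LOXL1 windows lie wholly within annotated exons, so these letters say nothing of promoters at other starts. The second SERPINH1 window, not printed here, held 3 matches, as many as the PLOD2 window. They begin 184, 133 and 129 bases before its start, and the first SERPINH1 window held none. For P4HA1, PLOD1, LEPRE1 and the first of the 3 LOX windows, the 25 bases around each match are shown, so that their flanks can be compared with those above.
P4HA1: tgatcgagctCACGTagcgagggct
PLOD1: gcgggggaggGCGTGgaggggcggg
PLOD1: cgggcccagtGCGTGgcagcgggac
LOX: tggcttctcgACGTGgctgcctggg
LOX: atccctccccCACGCgcctgcagtg
LEPRE1: gcataaaggcGCGTGggcggagctt
In GRCh38.p14 these lie at chr10:73096938-73096962 (minus strand), chr1:11934639-11934663 and chr1:11934682-11934706 (plus), chr5:122077277-122077301 and chr5:122077223-122077247 (minus), and chr1:42767234-42767258 (minus). The second LOX window overlaps the first and holds the same pair of matches. The third LOX window, not printed here, holds 4 other ACGTG matches, at 185, 116, 98 and 42 bases before its start, more than the PLOD2 window. The printed LOX flanks belong to a start downstream, in the direction of the gene, of the start whose window holds 4 matches. The window of these flanks overlaps an annotated LOX exon by up to 70 bases. The P4HA1, PLOD1 and LEPRE1 windows also overlap annotated exons, by up to 108, 23 and 56 bases. A match is a description of the letters and no evidence that a factor binds there.

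The 6 libraries held between 19091085 and 36250314 gene-assigned reads. A group of 8 genes taken as markers of HEK293, among them PAX2, NEFL and KRT18, was present in every library. They summed to 1985 to 2064 CPM (counts scaled to library size) in controls and 2407 to 2618 CPM in co-culture. The largest part was VIM, at 924 to 998 CPM in controls and 1257 to 1318 CPM in co-culture. VIM (log2 fold change 0.40, edgeR adjusted p 0.00793) and INA (0.38, 0.0118) of that group were higher in co-culture, and no other gene of it passed. PAX2, at 5.79 to 8.99 CPM over all libraries, had a value below 0 (-0.24, edgeR adjusted p 0.368). A group of 10 fibroblast genes summed to 52.0 to 68.2 CPM in controls and 54.2 to 59.6 CPM in co-culture, with COL1A2, DCN, PDGFRB, FAP and THY1 at 0.455 CPM or less in every library. LUM (log2 fold change -0.67, edgeR adjusted p 0.0293) and POSTN (-1.55, 0.0220) of that group were lower in co-culture. POSTN was low throughout, at 0.65 to 1.14 CPM in co-culture and 1.725 to 3.38 CPM in controls. COL1A1, the largest part of the sum, stood at 39.1 to 44.4 CPM in co-culture and 31.0 to 40.2 CPM in controls. Its log2 fold change was 0.28 (edgeR adjusted p 0.131). COL3A1 (-0.95, 0.159) and PDGFRA (-0.10, 0.773) did not pass either. Blood and endothelial genes summed to at most 2.34 CPM, with CD3E and HBB at 0. The partner cells are HEK293 as well, so their RNA cannot be told apart from that of the sampled cells. In bulk RNA, more cells that express a gene and more of its RNA per cell cannot be told apart either. The libraries also differ in a technical measure: reads on the strand opposite to the gene's made up a median of 0.124% and 0.211% per gene in co-culture libraries 2 and 3 and 1.57% to 1.75% in the other 4. Its part in the results was not tested beyond a fit that adds this class of library as a term (the strand class term). That fit compares, in effect, co-culture library 1 alone with the controls.

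In the co-culture samples PLOD2 and P4HA2 were higher than in the controls, by 1.61-fold and 1.32-fold, and the other 8 genes did not pass the test. The test was edgeR's quasi-likelihood test with adjustment over all 14582 tested genes at a threshold of 0.05, and it called 2 of the 10 genes higher and 0 lower. Over all tested genes it called 4.83%, with 2.66% higher and 2.17% lower in co-culture. In 7 of the 10 genes every co-culture library lay above every control library, where 14.3% of all tested genes did so. At an unadjusted p under 0.05 there were 6 of the 10, against 23.2% of all genes. The median log2 fold change of the 10 genes was 0.27, beside -0.00 over all tested genes, and 9 of the 10 had a value above 0. These comparisons with all genes are a description, since the 10 were chosen with earlier results of these data known. Summed over the 10 genes, the level was 910 to 929.5 CPM in co-culture and 663 to 789 CPM in the controls.

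**Figure D1:**
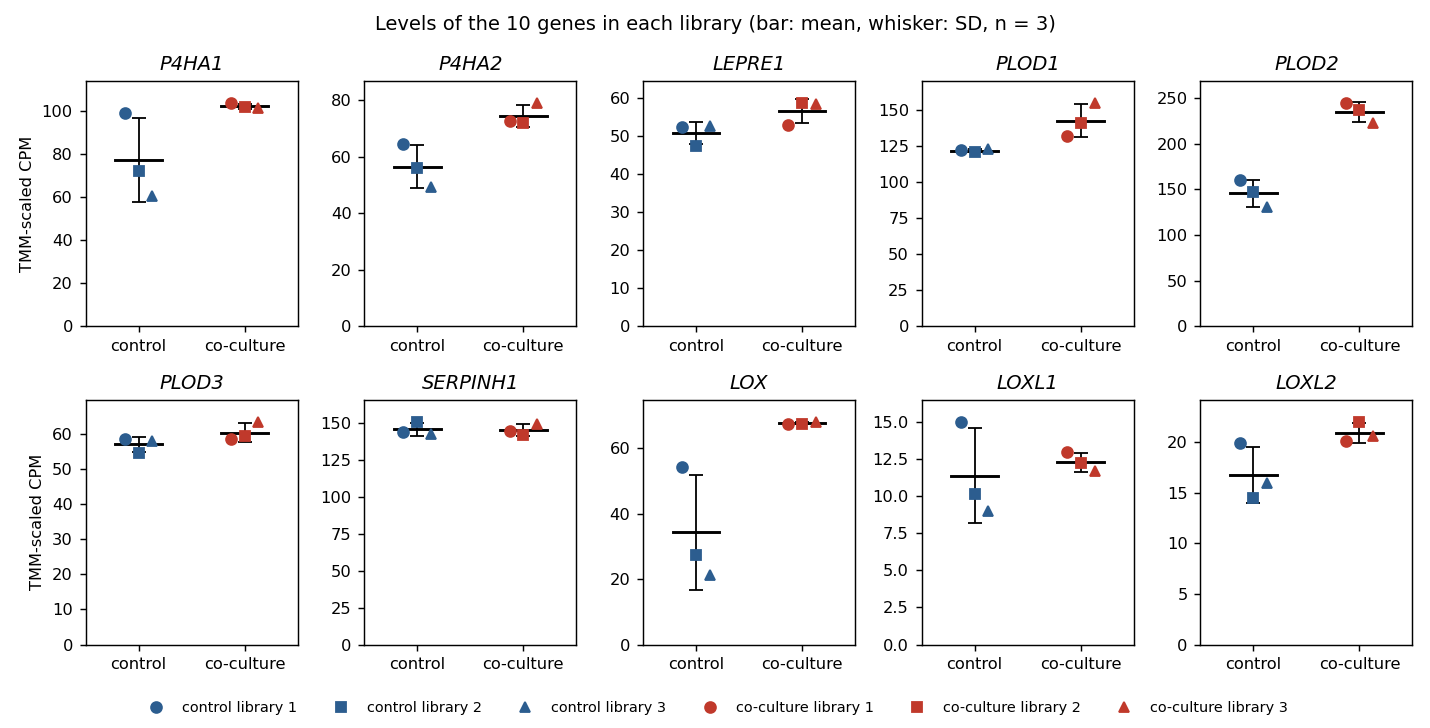
TMM-scaled CPM (counts scaled to library size) of the 10 genes in each library, with the mean as a bar and the SD as a whisker (n = 3 per group). The co-culture points of PLOD2 lie at 223 to 245 CPM, above the controls at 131 to 160 CPM, while SERPINH1 lies at 142 to 151 CPM throughout.

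Among the lysyl hydroxylases, PLOD2 stood at 245, 237 and 223 CPM in co-culture libraries 1, 2 and 3 and at 160, 147 and 131 CPM in controls 1, 2 and 3. All 3 co-culture libraries were above all 3 controls. The log2 fold change was 0.69 (SE 0.08, 95% interval 0.52 to 0.86), and edgeR's adjusted p was 0.00143. The call held in 13 other settings of the analysis, with log2 fold changes from 0.61 to 0.76. It also passed with the strand class term (0.75, edgeR adjusted p 0.0404), but there the co-culture arm is in effect a single library, assumed to vary like the others.

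PLOD1 hydroxylates lysines within the helix. It stood at 132, 141 and 155 CPM in co-culture and at 122, 121 and 123 CPM in the controls. The groups did not overlap, and the co-culture libraries were spread more widely than the controls. Its log2 fold change was 0.23 (SE 0.07, 95% interval 0.08 to 0.37), which did not pass (edgeR adjusted p 0.0717). It passed with DESeq2 (adjusted p 0.0412) and, in edgeR, without control 1 (adjusted p 0.0134), and with the strand class term the value was 0.12 (edgeR adjusted p 0.625).

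PLOD3 also adds sugars to hydroxylated lysines. It stood at 58.6, 59.4 and 63.6 CPM in co-culture and at 58.7, 54.5 and 58.1 CPM in the controls, and the groups overlapped. The difference was 0.08 on the log2 scale, with a 95% interval from -0.06 to 0.23 (edgeR adjusted p 0.473).

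Levels of different genes can be compared only per length, so shares within a family were taken from CPM per kilobase of the longest annotated transcript. PLOD2 made up 49.5%, 47.5% and 43.9% of the level of the 3 PLOD genes in co-culture libraries 1, 2 and 3, and 40.4%, 39.1% and 35.6% in controls 1, 2 and 3. Every co-culture share was above every control share, by means of 47.0% ± 2.88 against 38.4% ± 2.48 (SD, n = 3 each). PLOD1 had a mean share of 37.1% in co-culture and 41.9% in the controls, and PLOD3 15.9% and 19.8%. These shares are given as a description, with no test.

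**Figure D2:**
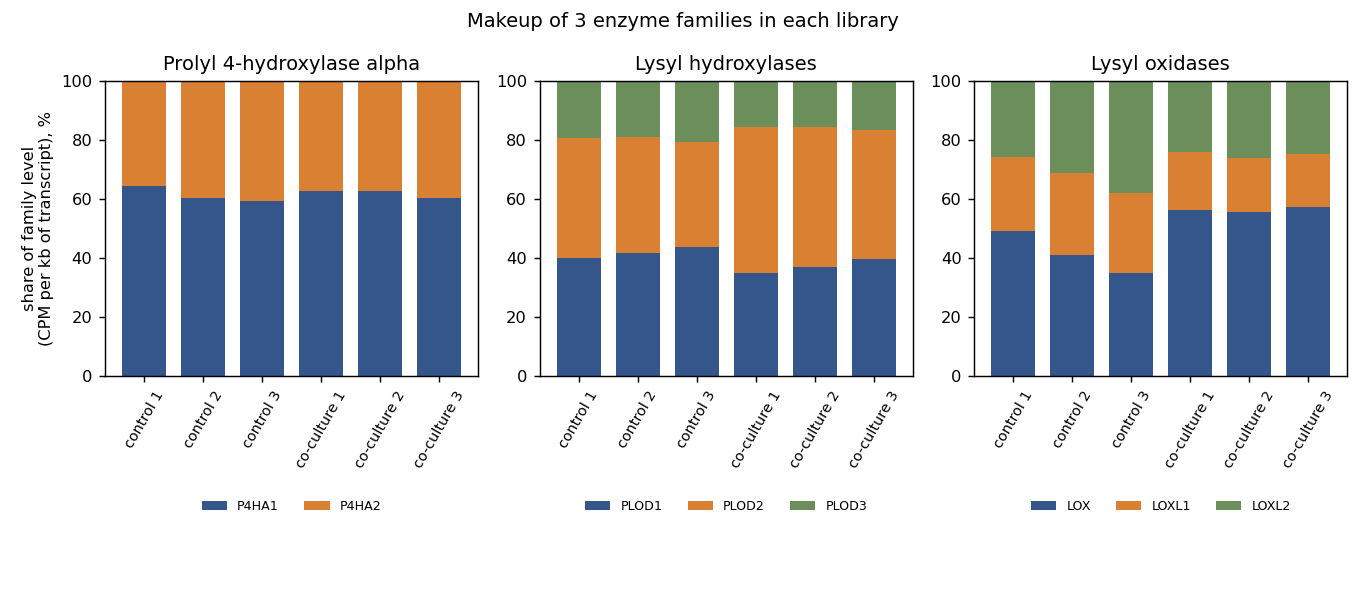
Share of each gene in the summed level (CPM per kilobase of transcript, in percent) of the prolyl 4-hydroxylase alpha subunits, the lysyl hydroxylases and 3 lysyl oxidases, one bar per library. PLOD2 takes 43.9% to 49.5% of the lysyl hydroxylase bars in co-culture and 35.6% to 40.4% in the controls, while the P4HA1 to P4HA2 split overlaps between groups.

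Of the prolyl 4-hydroxylase alpha subunits, P4HA2 stood at 72.7, 71.9 and 79.0 CPM in co-culture libraries 1, 2 and 3 and at 64.5, 56.0 and 49.2 CPM in controls 1, 2 and 3. The groups did not overlap. The log2 fold change was 0.40 (SE 0.09, 95% interval 0.20 to 0.61, edgeR adjusted p 0.0359). This call was lost with total-count scaling (0.37, edgeR adjusted p 0.0595), with the strand class term (0.36, 0.337), and without co-culture library 1, 2 or 3 or control 2, at log2 fold changes from 0.36 to 0.43 and edgeR adjusted p-values from 0.116 to 0.152. The replicate block was the seventh setting without the call. Over all 14 other settings its adjusted p ran from 7.33e-05 to 0.337.

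P4HA1 stood at 104, 102 and 102 CPM in co-culture and at 99.1, 72.4 and 60.8 CPM in the controls. Control 1 was close to the co-culture level and the other controls were well below it. The log2 fold change was 0.41, of the same size as that of P4HA2, but its SE was 0.16 (95% interval 0.04 to 0.77) and it did not pass (edgeR adjusted p 0.173). It passed with DESeq2 (adjusted p 0.0364), and without control 1 the value was 0.63 (edgeR adjusted p 8.11e-06). Without control 3 the value was 0.26 (edgeR adjusted p 0.200). P4HA2 took 38.2% ± 1.395 of the level of the pair in co-culture and 38.7% ± 2.73 in the controls (SD, n = 3 each), a difference smaller than the spread between libraries.

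LEPRE1, the prolyl 3-hydroxylase, stood at 52.9, 58.5 and 58.2 CPM in co-culture and at 52.3, 47.3 and 52.6 CPM in the controls. The lowest co-culture library lay just above the highest control. The log2 fold change, 0.16 (95% interval -0.00 to 0.31), did not pass (edgeR adjusted p 0.219), and with the strand class term it was 0.06.

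The chaperone SERPINH1 stood at 145, 142 and 149 CPM in co-culture and at 144, 151 and 142 CPM in the controls. The groups overlapped throughout. Its log2 fold change was -0.00 (edgeR adjusted p 0.972), with a 95% interval from -0.13 to 0.12, or 0.915-fold to 1.09-fold. The sign varied between settings, from -0.04 to 0.02.

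The lysyl oxidases act outside the cell. LOX stood at 67.4, 67.6 and 68.1 CPM in co-culture libraries 1, 2 and 3 and at 54.2, 27.4 and 21.2 CPM in controls 1, 2 and 3. The co-culture libraries were almost equal, with a coefficient of variation of 0.558%, while the controls varied by 51.2%. LOX had the largest estimated log2 fold change of the 10 genes, 0.99, but with an SE of 0.36 and a 95% interval from 0.08 to 1.90 it did not pass (edgeR adjusted p 0.186). Without control 1, in which LOX was 2.23 times the mean of the other controls, the value was 1.49 (edgeR adjusted p 8.10e-08). Without control 3 it was 0.73 (edgeR adjusted p 0.307), and it passed in no other setting.

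LOXL2 stood at 20.1, 21.99 and 20.6 CPM in co-culture and at 19.9, 14.4 and 16.0 CPM in the controls, with control 1 again closest to the co-culture level. The log2 fold change of LOXL2, 0.32 (SE 0.11, 95% interval 0.07 to 0.57), did not pass (edgeR adjusted p 0.128), and without control 1 it was 0.45 (edgeR adjusted p 0.00185). LOXL1 stood at 12.95, 12.2 and 11.7 CPM in co-culture and at 15, 10.2 and 8.97 CPM in the controls. Control 1 was the highest of all 6 libraries for LOXL1. LOXL1 had a log2 fold change of 0.11 (95% interval -0.26 to 0.49, edgeR adjusted p 0.730), which was 0.36 without control 1 (edgeR adjusted p 0.0267) and -0.04 without control 3 (edgeR adjusted p 0.900). LOX made up 55.6% to 57.2% of the summed level of LOX, LOXL1 and LOXL2 per length in co-culture and 34.9% to 49.2% in the controls.

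Control 1 moved with many of these values. It was the highest of the 3 controls for 7 of the 10 genes, against 39.5% of all tested genes. Without it 7 of the 10 genes passed edgeR's test, all higher in co-culture, where 20.8% of all tested genes passed. When co-culture library 1, 2 or 3 or control 2 was left out, PLOD2 alone passed, where 0.831%, 0.503%, 2.18% and 0.44% of all genes did. Without control 3, PLOD2 and P4HA2 passed, beside 5% of all genes. Why control 1 differs from the other controls was not tested. The other settings can be read against their own backgrounds. DESeq2 called 4 of the 10 genes and 7.08% of all genes. RLE scaling (4.86% of all genes), limma-voom (4.63%), unstranded counts (4.46%) and no low-count filter (4.5%) each called 2 of the 10. Total-count scaling (6.05%), the replicate block (1.12%) and the strand class term (0.199%) each called PLOD2 alone.

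**Figure D3:**
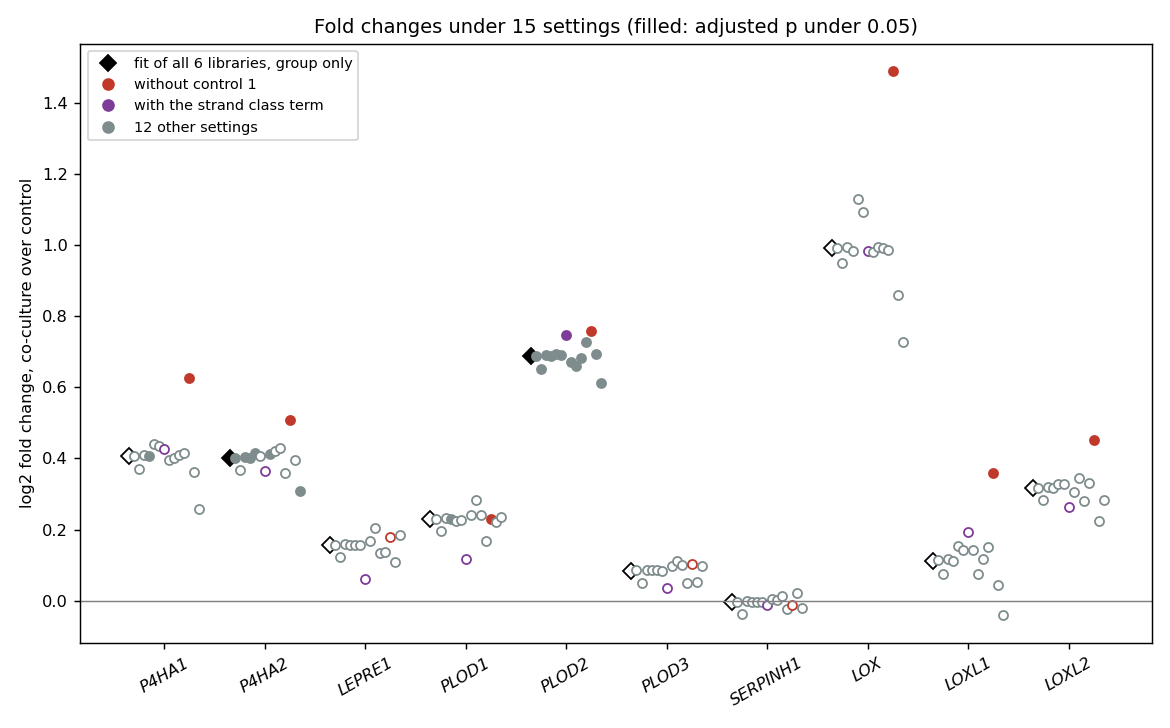
Log2 fold change of the 10 genes (co-culture over control) under 15 settings, with filled points at an adjusted p under 0.05. All 15 PLOD2 points are filled and lie between 0.61 and 0.76, while LOX runs from 0.73 to 1.49 and passes only without control 1.

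Per length, the order of levels in the controls was PLOD1 and SERPINH1 (41.4 CPM per kilobase each), PLOD2 (38.04), P4HA1 (27.2), PLOD3 (19.6), LEPRE1 and P4HA2 (16.9 each), LOX (6.72), LOXL2 (4.72) and LOXL1 (4.09). The control libraries of neighbours overlapped along this order except between P4HA1 and PLOD3, PLOD3 and LEPRE1, and P4HA2 and LOX. In co-culture PLOD2 was first at 61.3 CPM per kilobase, ahead of PLOD1 (48.5), SERPINH1 (41.2), P4HA1 (36.0), P4HA2 (22.3), PLOD3 (20.7), LEPRE1 (18.8), LOX (13.3), LOXL2 (5.88) and LOXL1 (4.41). There, P4HA2 and PLOD3 were the 1 pair of neighbours whose libraries overlapped. PLOD2 ranked first in all 3 co-culture libraries and in control 1, and took the third place in controls 2 and 3. A cell that uses shorter transcripts than the longest annotated would have a higher level per length than given here.

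The partners of these enzymes did not pass the test. Of a list of 21 other collagen-processing genes, 20 were tested and 0 passed edgeR's test, DESeq2 or limma-voom. Over all tested genes 4.83%, 7.08% and 4.63% passed, so 0 of 20 says little about the partners as a group. Their median log2 fold change was 0.03, and 3 had an unadjusted p under 0.05, as did 23.2% of all tested genes. Those 3, named after their values were seen, were LEPREL4 (-0.18), FKBP10 (0.23) and MIA3 (0.17). P4HB, the shared subunit of prolyl 4-hydroxylase and also protein disulfide isomerase, stood at 695, 742 and 760 CPM in co-culture and at 720, 756 and 752 CPM in the controls, with overlapping groups. P4HB had a log2 fold change of -0.02 (95% interval -0.16 to 0.12, edgeR adjusted p 0.883). The complex partners of LEPRE1 likewise overlapped between groups: CRTAP had a log2 fold change of -0.01 (95% interval -0.16 to 0.13), and PPIB one of 0.01 (-0.13 to 0.15), which was -0.02 with total-count scaling.

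The paralogs of LEPRE1 had small values of either sign. LEPREL1 (now P3H2) and LEPREL2 (now P3H3) had log2 fold changes of 0.12 (95% interval -0.08 to 0.31) and 0.09 (-0.09 to 0.27). LEPREL4 (now P3H4), a relative without known hydroxylase activity, stood at 74.5, 78.4 and 77.7 CPM in co-culture and at 89.9, 86.3 and 84.6 CPM in the controls. Its groups did not overlap, with lower values in co-culture, but it did not pass (log2 fold change -0.18, 95% interval -0.31 to -0.05, edgeR adjusted p 0.103). Without control 1, 4 of the 20 tested partner genes passed, where 20.8% of all tested genes did.

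Of 12 genes that handle copper or ascorbate or assist LOX, 11 were tested and 0 passed edgeR's test, DESeq2 or limma-voom. Over all tested genes 4.83%, 7.08% and 4.63% passed, so 0 of 11 says little about this list. At an unadjusted p under 0.05 there were 3, against 23.2% of all tested genes. ATP7A, the copper pump that loads LOX in the secretory pathway, stood at 95.4, 91.7 and 89.1 CPM in co-culture and at 77.9, 85.3 and 84.2 CPM in the controls, with no overlap. The ATP7A difference of 0.16 on the log2 scale (95% interval 0.02 to 0.29) did not pass (edgeR adjusted p 0.156). The other 2, named after their values were seen, were the copper importer SLC31A1 (-0.18) and EFEMP2 (0.62), an extracellular protein that assists LOX. With total-count scaling 1 gene of this list passed (6.05% of all tested genes), and without control 1 there were 2 (20.8% of all tested genes).

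HIF targets outside the 10 genes mostly had values above 0. Of 33 listed, 31 were tested, 26 had a log2 fold change above 0 (49.6% of all tested genes did), and the median was 0.20. In edgeR's test 4 passed, all higher in co-culture, where 4.83% of all tested genes passed. Values below 0 were found for 5 genes, among them CA12 (-0.44, edgeR adjusted p 0.062), named after its values were seen. Every co-culture library lay below every control for CA12. BHLHE40, a transcriptional repressor, stood at 128, 116 and 122 CPM in co-culture and at 83.3, 74.4 and 72.0 CPM in the controls, without overlap (log2 fold change 0.67, SE 0.07, edgeR adjusted p 0.00105). Its size was near that of PLOD2, and its call held in the 14 other settings, the strand class term among them. ERO1L (now ERO1A), the oxidase that drives disulfide formation in the endoplasmic reticulum, rose from 96.8 ± 6.32 to 117 ± 1.68 CPM (SD, n = 3 each), or by 0.28 on the log2 scale (edgeR adjusted p 0.0314). PDK1, the kinase that inhibits pyruvate dehydrogenase, and ALDOA, a glycolytic aldolase, were higher by 0.43 and 0.32 on the log2 scale (edgeR adjusted p 0.0345 and 0.0418). These 3 calls were lost in 7 (ERO1L and PDK1) or 8 (ALDOA) of the 14 other settings. Control 1 was the highest control for 28 of the 31 genes, against 39.5% of all tested genes. Without it 22 passed, where 20.8% of all tested genes did. Without co-culture library 1, 2 or 3 or control 2 there was 1, where 0.831%, 0.503%, 2.18% and 0.44% of all genes passed. With total-count scaling 2 passed (6.05% of all tested genes), and with DESeq2 9 (7.08%).

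Some of the enzymes' substrates passed the test. Of 30 collagen and elastin genes, 23 were tested. Of these, 4 passed as higher and 1 as lower, where 4.83% of all tested genes passed. The median log2 fold change was -0.00. COL12A1, a fibril-associated collagen, stood at 125, 126 and 127 CPM in co-culture and at 78.2, 74.9 and 89.7 CPM in the controls (log2 fold change 0.64, SE 0.07, edgeR adjusted p 0.00143). COL4A1, a chain of basement membrane collagen, rose from 160 ± 6.58 to 212 ± 11.7 CPM (SD, n = 3 each), or by 0.41 on the log2 scale (edgeR adjusted p 0.00719). COL4A3, another basement membrane chain, and COL7A1, which forms anchoring fibrils, were higher by 0.69 and 0.90 on the log2 scale (edgeR adjusted p 0.00719 and 0.0101). COL14A1, also fibril-associated, fell from 139 ± 11.05 to 108 ± 3.90 CPM (SD, n = 3 each), which is -0.36 on the log2 scale (edgeR adjusted p 0.0176). The call of COL14A1, the 1 lower gene, was lost in 6 of the 14 other settings, including each fit without co-culture library 1, 2 or 3 or control 2 (edgeR adjusted p 0.0512 to 0.136). Calls were lost in 3 settings for COL4A1, in 4 each for COL4A3 and COL7A1, and in 1 for COL12A1.

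With the strand class term COL12A1 had a log2 fold change of 0.62, in effect from co-culture library 1 alone against the controls. Control 1 was the highest control for 20 of the 23 tested collagen genes, against 39.5% of all tested genes. Without it 11 passed, where 20.8% of all tested genes did. Without co-culture library 1 there were 2, beside 0.831% of all tested genes. Without co-culture library 2 or control 2 there was 1, where 0.503% and 0.44% of all tested genes passed.

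**Figure D4:**
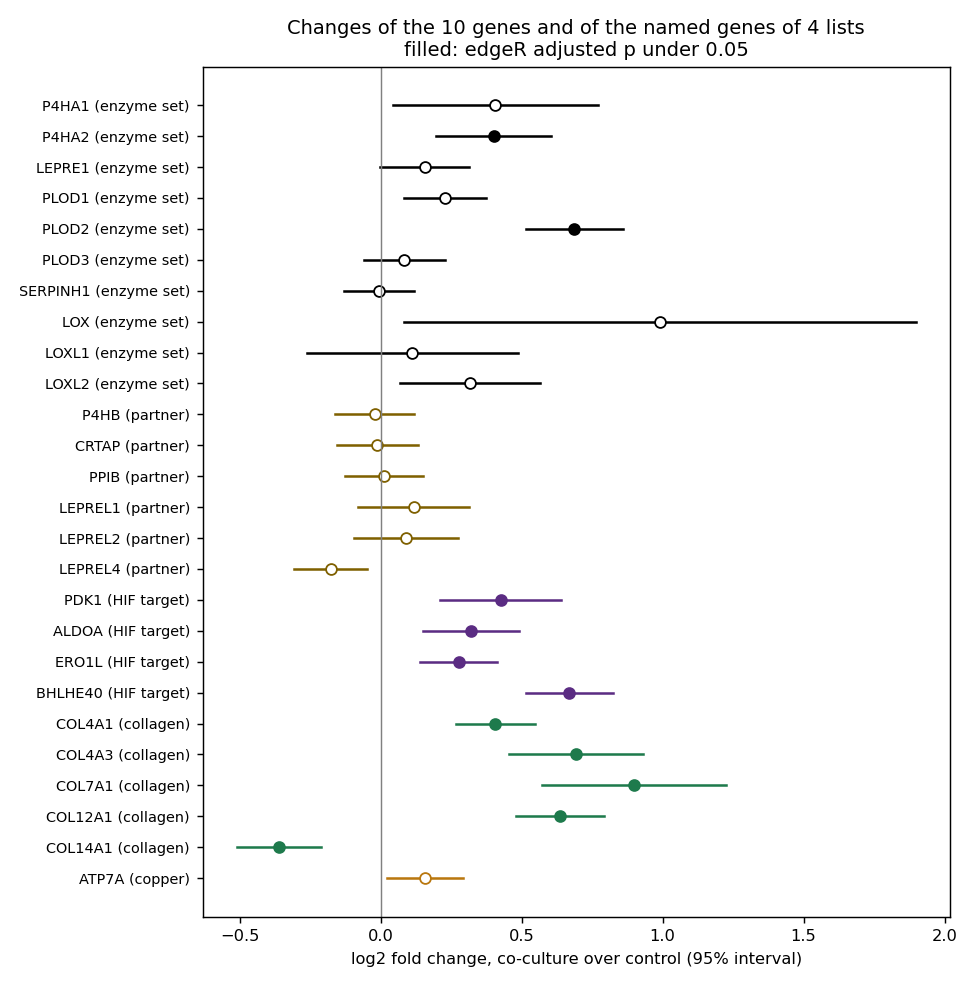
Log2 fold change (co-culture over control) with its 95% interval for the 10 enzyme-set genes and for the named genes of 4 related lists, with filled points at an edgeR adjusted p under 0.05. PLOD2 at 0.69, BHLHE40 at 0.67 and COL12A1 at 0.64 lie close together, and the partners P4HB, CRTAP and PPIB lie within 0.02 of 0.

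**Figure D5:**
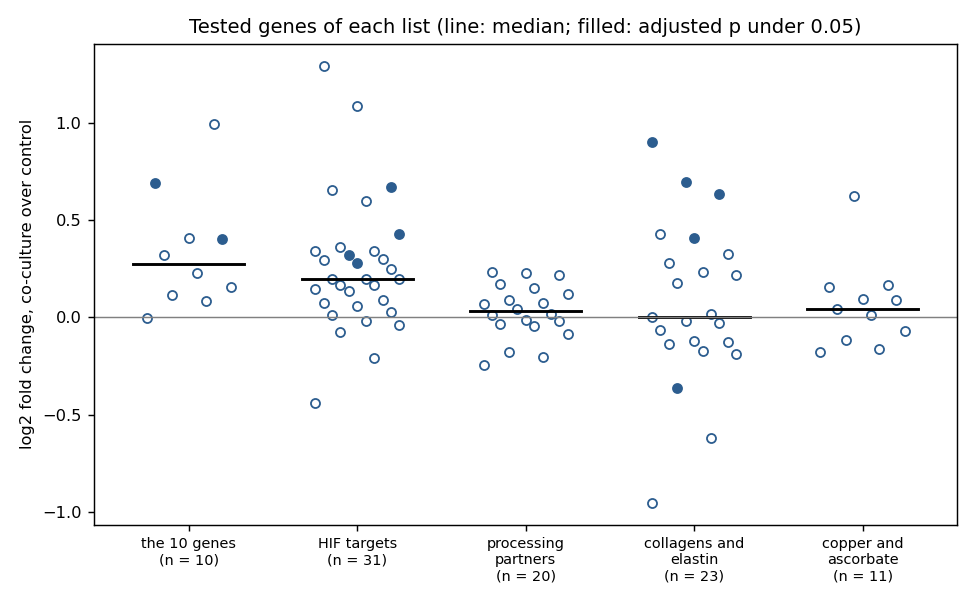
Log2 fold change of every tested gene in the enzyme set and in each list, with the median as a line and filled points at an edgeR adjusted p under 0.05. The medians are 0.27 for the 10 genes, 0.20 for HIF targets, 0.03 for processing partners, -0.00 for collagens and elastin and 0.04 for copper and ascorbate genes.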

How the data were processed

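RNA was extracted with TriPure and sequenced after Illumina's stranded mRNA preparation, per the labels' protocols. The deposited values are raw read counts per gene, 1 file per library, made with STAR 2.53a on hg18, per the submitters' processing notes (FastQC is also named); the annotation release is not given in the sources used here. Reverse-strand counts were used, because they far exceed the forward-strand ones. The 4 summary lines were left out; reads without a gene made up 14.8% to 17.7% and multimapping reads 6.48% to 8.42%. Multimapping reads are not counted per gene. The counts are of reads without molecular identifiers, so read numbers alone do not set the counting errors.

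Groups came from the sample titles. Replicates differed by more than sampling noise (chi-square per degree of freedom 4.56 to 17.7). The fit used edgeR 4.0.16 (R 4.3.3), filterByExpr at a minimum count of 10 (14582 genes, 0.0473% of reads removed), TMM scaling, group as the only term and robust quasi-likelihood F tests with Benjamini-Hochberg adjustment. Standard errors were obtained from each gene's log2 fold change and F (their ratio, with F under a square root), and CPM uses TMM-scaled library sizes. Scripts were tested on simulated data. Alternatives were RLE and total-count scaling, no low-count filter, DESeq2 1.42.0, limma-voom (limma 3.58.1), a replicate block, a strand class term, unstranded counts and each library left out. Transcript lengths came from GENCODE release 29 and promoter sequences from RefSeq (GRCh38.p14), not the files' build. All 96 listed genes were found, 6 under an older symbol.

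Named genes are the 10 enzymes, list genes past the threshold (at most 6 per list), and P4HB, CRTAP, PPIB, ATP7A and the LEPRE1 paralogs, plus the 3 genes most like the enzyme of smallest p. Outside this rule, FKBP10, MIA3, SLC31A1, EFEMP2 and CA12 were named after their values were seen, as were the cell type markers given with values. The genes and lists were chosen with earlier results of these data known.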

Additional observations from a re-analysis of the deposited data

How the results depend on the processing

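PLOD2 kept its direction and call in the 14 other settings (adjusted p from 5.66e-13 to 0.0404, the highest with the strand class term, which leaves 1 co-culture library in the comparison). P4HA2 lost its call with total counts (0.37), the strand class term (0.36) and the replicate block (0.41, edgeR adjusted p 0.0907), and over the fits without 1 library it ran from 0.31 to 0.51. Same-numbered libraries did not deviate together (correlations -0.05, -0.11 and -0.12), and no library correlated best with its own number, so the block pairs nothing the labels state. With the block 164 of all genes passed, 1 of the 10 enzymes and 1 HIF target. With the strand class term 29 genes passed, 1 enzyme, 1 HIF target and 0 collagens. P4HA1 and PLOD1 passed with DESeq2 (0.41 and 0.23), which called 4 enzymes and 9 HIF targets. Total counts left 1 enzyme, 2 HIF targets and 1 copper or ascorbate gene. SERPINH1 was 0.00529 with unstranded counts, CRTAP 0.0302 with the strand class term, and PPIB -0.0215 with total counts, -0.0189 with the strand class term and -0.119 with unstranded counts.

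Without 1 library at a time, log2 fold changes ran from 0.26 to 0.63 for P4HA1, 0.17 to 0.28 for PLOD1, 0.73 to 1.49 for LOX, -0.0410 to 0.36 for LOXL1, 0.22 to 0.45 for LOXL2, -0.0227 to 0.0214 for SERPINH1, -0.0452 to 0.0201 for P4HB, -0.0432 to 0.0382 for CRTAP and -0.0359 to 0.0477 for PPIB. The number of genes past the threshold ran from 65 to 3069, of enzymes from 1 to 7, of partners from 0 to 4, of HIF targets from 1 to 22, of collagens from 1 to 11 and of copper or ascorbate genes from 0 to 2. The causes were not tested. Taken from reads without length, the shares were 42.1% and 42.6% for P4HA2, 53.7% and 44.9% for PLOD2, and 67.1% and 53.2% for LOX (co-culture and control), since the transcripts differ in length. With 3 libraries a group, the width of the intervals printed beside each gene sets what could be seen.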

Other observations

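Of the 11647 tested genes averaging 5 CPM or more, the 3 whose log2 CPM followed PLOD2 most closely over the 6 libraries were TRIM9, DYNC2LI1 and FLVCR1, with Pearson correlations of 0.997, 0.996 and 0.995. With 6 libraries in 2 groups and so many genes searched, such values are a description and carry no test. The genes were picked for following PLOD2, which differs between the groups. Their own group differences and adjusted p-values below follow from that choice and are no further evidence. TRIM9, a brain-enriched ubiquitin ligase, stood at 28.0, 28.2 and 25.9 CPM in co-culture and at 18.7, 16.6 and 15.5 CPM in the controls, a log2 fold change of 0.69 (edgeR adjusted p 0.00300). DYNC2LI1, a subunit of the ciliary dynein motor, and FLVCR1, a membrane transporter, were higher by 0.30 and 0.26 on the log2 scale (edgeR adjusted p 0.0413 and 0.0330).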
